A study of Mus musculus with 34 samples.

Results

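Macrophages of MC38 tumors were compared with the Ly6C+ monocytes found in the same kind of tumor. MC38 is a mouse colon adenocarcinoma line, and the mice were of the C57/Bl6 strain. The comparison used the 4 libraries titled as MC38 tumor macrophages (TuMac) and the 4 titled as MC38 tumor monocytes (TuMon1), 8 of the 34 libraries of the series and 8 of its 24 from mice. The monocytes were sorted as Ly6C+, CD88+ (the complement receptor C5ar1) and Sca1+ (Ly6a), while no antigen is named in the labels for the macrophages. The tests also drew on the other in vivo groups: Ly6C+ spleen monocytes of the mice with MC38 or LLC tumors, and, from LLC (Lewis lung carcinoma) tumors, macrophages and Ly6C+ CD88+ Sca1- monocytes (TuMon2). No treatment or engineered allele is named for these groups, and age and sex were not used here. The labels do not say whether the 4 libraries of a group came from separate animals. The p-values cover the spread between libraries of a group, pooled over all 24 in vivo libraries, and that spread may be technical.

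Ly6C+ monocytes are made in the bone marrow, circulate in blood and enter inflamed tissue and tumors through the chemokine receptor Ccr2. In the tissue they can survive for a short time as monocytes, or mature into macrophages, large phagocytes that take up dying cells, digest them in lysosomes, export their lipids and in many tissues divide on site. Maturing cells are known to lose monocyte genes such as Ly6c2, Ccr2 and Plac8 and to gain genes such as Adgre1 (F4/80), Mertk, Apoe and the chains of complement C1q. A comparison of sorted populations shows how they differ, not that one gave rise to the other.

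Library totals of the 8 libraries lay between 15610220 and 23574404 estimated counts, with 14626 to 15583 genes above 0. Levels are given as CPM, a gene's counts scaled to a library of 1 common size, on library sizes scaled by edgeR's TMM method, as mean ± SD over 4 libraries or library by library in the order of the replicate numbers. CPM are not divided by gene length, so levels of different genes are not compared. In bulk RNA, fewer cells of a type and less RNA per cell cannot be told apart. Macrophage replicate 4 stood apart from its group: gene counts differed from those of the other 3 macrophage libraries with a chi-square per gene of 43.8 to 66.6, against 10.5 to 16.4 among those 3. Its 13 mitochondrially encoded RNAs summed to 48715 CPM, against 17313, 15759.6 and 19494 in the other macrophage libraries, and its 9 fat cell genes to 164 CPM, against 5.02, 44.3 and 7.83. Results that rest on it are given with and without it.

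The genes behind the sort came first. Ly6c2 was at 2826, 2705, 2821 and 3010.4 CPM in the monocytes and at 71.4, 97.2, 69.1 and 40.2 CPM in the macrophages, and Ly6c1, a near-identical neighbor that can share its reads, at 42.2 ± 5.07 and 3.07 ± 1.67 CPM. C5ar1 was at 379 ± 15.4 CPM in monocytes and 266 ± 13.1 CPM in macrophages. Ly6a stood at 1702, 1696, 1732 and 1806 CPM in monocytes and at 895, 881, 880.1 and 626 CPM in macrophages, so that the groups did not overlap. The log2 difference of Ly6a was -1.08 ± 0.52 (SE), which did not pass in the test over 24 libraries (edgeR quasi-likelihood, adjusted p = 0.0914) and passed with only the 8 libraries in the fit (-1.06, adjusted p = 1.74e-07). Since the monocytes were sorted on these antigens, their differences are given as a description.

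The labels fit the markers Cadm1 and Chil3, while other macrophage genes, described below, rose, fell or were not called. Cadm1, an adhesion molecule that marks tumor macrophages, was at 92.3, 87.5, 91.3 and 105 CPM in the macrophage libraries and at 7.39, 6.61, 5.81 and 3.38 CPM in the monocyte libraries. Every macrophage library lay above every monocyte library, and the log2 difference was 4.02 ± 0.23 (edgeR quasi-likelihood, adjusted p = 6.86e-12). Chil3, the chitinase-like protein Ym1 of Ly6C+ monocytes, went the other way, from 244, 160.3, 245 and 295 CPM in monocytes to 7.13, 8.5, 7.41 and 3.74 CPM in macrophages, a log2 difference of -5.14 ± 0.49 (adjusted p = 4.75e-08). Cadm1 lies at positions 47530170 to 47862280 of chromosome 9 and Chil3 at positions 106147554 to 106167564 of chromosome 3 (GRCm38). Both cell types had high levels of the macrophage genes Adgre1, Apoe and C1qc, described below.

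Of 13200 genes tested, 6954 (52.7%) differed between macrophages and monocytes at an adjusted p under 0.05: 3274 (24.8%) were higher in macrophages and 3680 (27.9%) lower. With upper quartile scaling, which moved the median of all genes by 0.111 on the log2 scale, the split was 4110 higher and 2960 lower, so the balance of small rises and falls depends on the scaling. Most differences were small. Beyond 2-fold, 905 genes were higher and 806 lower, and beyond 8-fold 78 were higher and 47 lower. The spread in this test was pooled over all 24 in vivo libraries. Among these, most MC38 spleen libraries held much fat cell RNA. The 9 fat cell genes summed there to 10680, 9061.9, 15814.2 and 23.63 CPM, in the order of the replicate numbers. A gene not called in this test is therefore not shown to be equal in both groups. A fit of the 8 libraries alone called 7512 of 12175 genes (61.7%), 3763 (30.9%) higher and 3749 (30.8%) lower. It called 804 genes that the larger fit did not, did not call 142 of those it tested that the larger fit called, and gave no called gene the opposite direction. Values of the smaller fit are named below as those of the fit of the 8 libraries, and are given for a list where they moved a count by over 1.5 times. For every list counted below, the shares over all genes are 24.8% higher and 27.9% lower (30.9% and 30.8% in the fit of the 8 libraries).

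**Figure D1:**
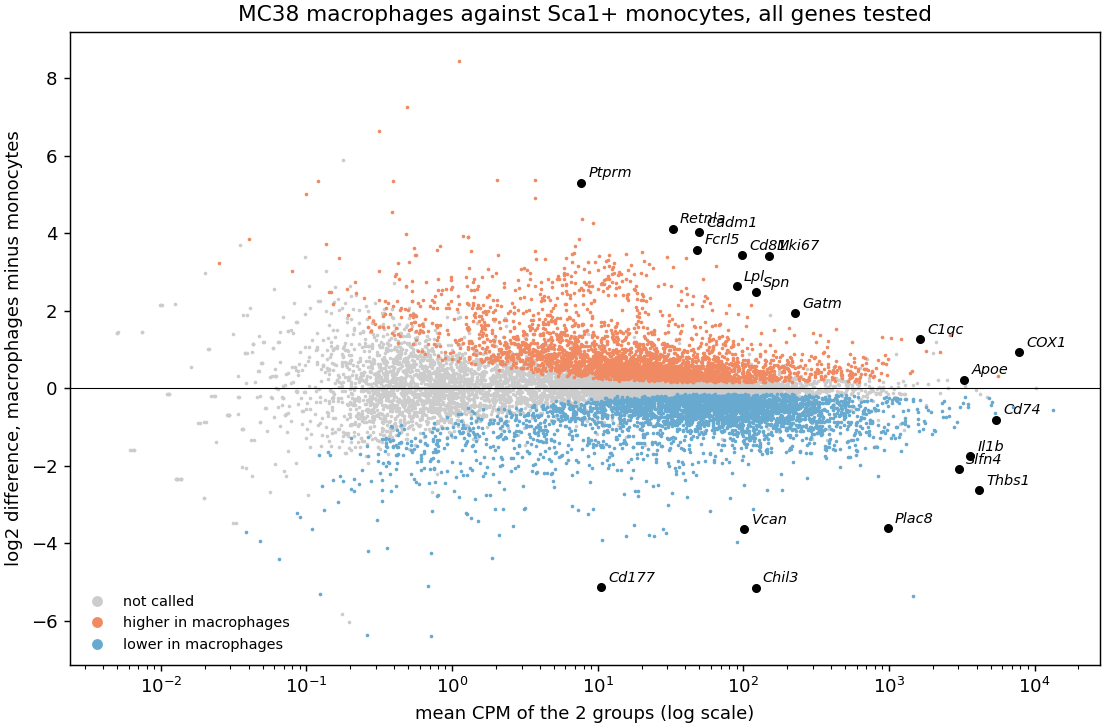
Mean CPM of the MC38 macrophage and monocyte groups (x axis, log scale) against the log2 difference, macrophages minus monocytes (y axis), for the 13200 genes tested. Orange points are the 3274 genes called higher and blue points the 3680 called lower at an adjusted p under 0.05. Among the labelled points are Ptprm at 5.31 and Chil3 at -5.14.

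The largest rises, among genes with at least 10 CPM in macrophages and no overlap of libraries, included several genes of cell division and of the cell surface. To division belong Knl1 of the kinetochore (3.66), cyclin Ccnb2 (3.51), the kinesin Kif15 (3.46), the Cdk1-inhibiting kinase Pkmyt1 (3.45), the DNA glycosylase Neil3 (3.46), the replication fork protein Radx (4.37) and Shcbp1 (3.42). Ptprm, a receptor tyrosine phosphatase of cell contacts, was at 9.44, 18.2, 16.2 and 16 CPM in macrophages and at 0.591, 0.52, 0.11 and 0.252 CPM in monocytes. That was the largest rise by this rule, a log2 difference of 5.31 ± 0.72 (adjusted p = 3.0e-06), and in the monocytes the gene was close to absent. Cd81, a tetraspanin, went from 17.6, 18.1, 14.4 and 16.1 CPM in monocytes to 166, 157, 209.6 and 181 CPM in macrophages (3.43 ± 0.34). Fcrl5, an Fc receptor-like protein better known from B cells, stood at 80.9, 93.2, 86 and 96.3 CPM in macrophages and 7.68, 11.9, 5.26 and 5.04 CPM in monocytes. Retnla, a secreted protein of macrophages responding to interleukin 4, was at 45.3, 57.9, 79 and 65.9 CPM in macrophages and 3.15, 3.28, 4.22 and 3.63 CPM in monocytes. All macrophage libraries lay above all monocyte libraries (4.12 ± 0.70, adjusted p = 6.38e-05). Collagen XIV (Col14a1) rose by 4.28, the ubiquitin ligase adaptor Asb2 by 3.86 and the exchange factor Rapgef5 by 3.48.

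The largest falls were led by genes of blood monocytes and granulocytes. Cd177, a surface protein of neutrophils, was at 19.9, 15.6, 18.4 and 28.6 CPM in monocytes and at 0.478, 0.711, 0.836 and 0.366 CPM in macrophages. All 4 macrophage libraries were far below the monocytes, with a log2 difference of -5.14 ± 0.27 (adjusted p = 3.28e-12). The acute phase protein haptoglobin (Hp) fell by 3.72, the interferon-induced membrane protein Ifitm6 by 3.64, the matrix proteoglycan Vcan by 3.63, Plac8 by 3.61, coagulation factor X (F10) by 3.11 and the protease inhibitor Slpi by 3.8. The same rule also gave the apelin receptor Aplnr (-3.9), the guanylate cyclase Gucy2c (-3.14), the histamine-making enzyme Hdc (-3.17), the phospholipase Plcb1 (-3.24), Rab44 (-3.52) and Arhgef37 (-3.82).

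By size in CPM, the largest falls among called genes included these. Thbs1, the secreted thrombospondin 1, was at 6981, 5803, 7731 and 8183 CPM in monocytes and 1118, 1316, 1132 and 1063 CPM in macrophages, a log2 difference of -2.63 ± 0.57 (adjusted p = 0.000668). Its 4 macrophage libraries were all below the lowest monocyte library. Il1b, the cytokine interleukin 1 beta, went from 5448, 4754, 5709.5 and 6416 CPM to 1923, 1594, 1619 and 1522 CPM (-1.75 ± 0.38, adjusted p = 0.000771). The schlafen gene Slfn4 fell from 4897 ± 252 to 1148 ± 312 CPM (-2.09 ± 0.39), the ferritin heavy chain Fth1 from 8338 ± 623 to 5938 ± 345 CPM and the matrix protein Tgfbi from 6521 ± 330.1 to 4169 ± 232 CPM. Lysozyme Lyz2 fell by 1.11 and the messenger-destabilizing protein Zfp36 by 1.0. The gains of most CPM among called genes were in mitochondrially encoded RNAs, in C1qc and in the housekeeping genes Eef1a1 (0.31), a translation factor, and Ppia (0.85), a prolyl isomerase.

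**Figure D2:**
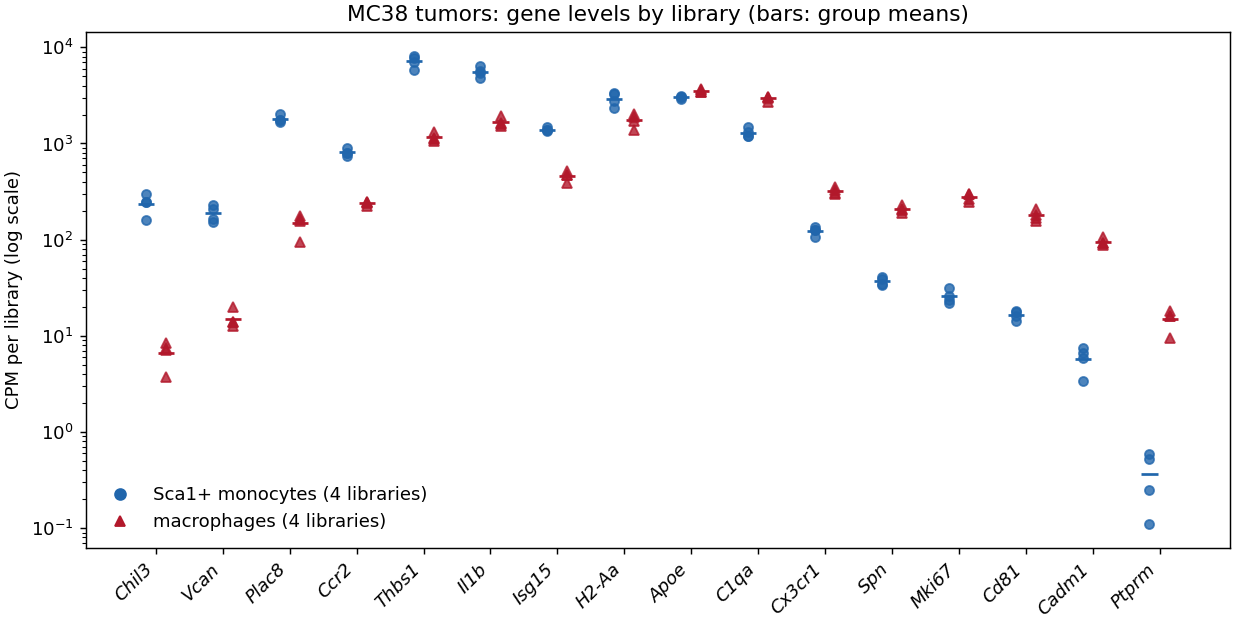
CPM of 16 genes in each of the 4 MC38 Sca1+ monocyte libraries (blue circles) and the 4 MC38 macrophage libraries (red triangles), on a log y axis, with bars at the group means. The genes on the left, from Chil3 to H2-Aa, are lower in every macrophage library than in any monocyte library, those on the right, from C1qa to Ptprm, are higher in every one, and Apoe is close in both.

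Genes of classical monocytes were lower in macrophages throughout the list: 20 of 20 tested members fell, against 27.9% of all genes, with a median log2 difference of -1.72 against -0.015 over all genes tested. Their summed level was 17167, 15238, 18384 and 19878 CPM in the monocyte libraries and 4744, 4979, 4562 and 4577 CPM in the macrophage libraries. Ccr2, the receptor that draws monocytes into tissue, stood at 791, 749, 893 and 799 CPM in monocytes and 244, 239, 222 and 245 CPM in macrophages (-1.77 ± 0.12, adjusted p = 1.96e-11). The macrophages thus had a clear level of it. Plac8 was at 1755, 1692, 1759 and 2025 CPM in monocytes and 163, 176, 157 and 94.4 CPM in macrophages. The C-type lectin Clec4e fell by 2.62, the membrane protein Ms4a4c by 1.18, clotting factor F13a1 by 1.26 and fibronectin (Fn1) by 0.85. The smallest fall was that of the integrin chain Itgal (-0.60). The monocytes were sorted as Ly6C+, and the part of that sort in the differences of this list was not tested.

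The genes of nonclassical (Ly6C low) monocytes split: 4 of 14 tested rose (24.8% of all genes did) and 5 fell. Cx3cr1, the fractalkine receptor of patrolling monocytes and tissue macrophages, was at 349, 304, 326 and 301 CPM in macrophages and 125, 126, 136 and 108 CPM in monocytes (1.37 ± 0.15, adjusted p = 5.59e-08). Spn (CD43) was at 190.1, 202, 209.6 and 227 CPM in macrophages and 40.4, 39.3, 34.9 and 34.1 CPM in monocytes (2.48 ± 0.09, adjusted p = 1.57e-15). Both groups of libraries were tight and well apart for these genes. Cd300e rose by 1.5. The nuclear receptor Nr4a1, on which patrolling monocytes depend, fell by 1.52, and Ace, the angiotensin-converting enzyme, fell from 33.3 ± 11.6 to 4.84 ± 0.951 CPM.

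The macrophage maturation genes did not move as a block. Of 30 tested, 9 rose, 6 fell and 15 were not called, shares near the 24.8% and 27.9% of all genes, with a median of 0.34. The fit of the 8 libraries called 15 of 29 higher and 7 lower, against 30.9% and 30.8% of all genes. There the share that rose was above that of all genes. A fit of the 16 tumor libraries called 15 higher and 6 lower. Adgre1 (F4/80) rose from 486 ± 49.3 to 847 ± 94.9 CPM (0.80 ± 0.11). Vcam1, an adhesion molecule of tissue macrophages, rose from 20 ± 4.14 to 68.6 ± 11.2 CPM (1.78 ± 0.24). Trem2, a lipid-sensing receptor, was at 154, 137, 138 and 111 CPM in macrophages and 85.8, 90.6, 72.7 and 76.6 CPM in monocytes (0.73 ± 0.13). Cd163 and Lyve1, receptors of resident tissue macrophages, rose by 2.64 and 3.08 but stayed low, at 6.35 ± 3.48 and 5.35 ± 1.74 CPM in macrophages.

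C1q, the recognition molecule of the classical complement pathway, has 3 chains, and the call differed among them. C1qa was at 2992, 2717, 3029 and 3037 CPM in macrophages and 1313, 1473, 1202 and 1182 CPM in monocytes, C1qb at 2622 ± 108 and 1389 ± 82.3 CPM, and C1qc at 2311 ± 91.4 and 958 ± 78.7 CPM. All 3 chains were higher in each macrophage library than in any monocyte library. C1qc passed the test over 24 libraries (1.27 ± 0.47, adjusted p = 0.0312), whereas C1qa (1.19 ± 0.62, adjusted p = 0.117) and C1qb (0.92 ± 0.47, adjusted p = 0.111) did not. The call of C1qc ended without any 1 of the libraries except macrophage replicate 2 (adjusted p of 0.053 to 0.071). In the fit of the 8 libraries all 3 passed, C1qa with an adjusted p of 1.07e-09 and C1qb with 2.51e-09. In the spleen monocytes of the MC38 mice, which enter the pooled spread, C1qa was at 29.2 ± 15 CPM. Ms4a7 (0.76 ± 0.38, adjusted p = 0.106) and the mannose receptor Mrc1 (0.50 ± 0.30, adjusted p = 0.179) behaved likewise, with 6.34e-05 and 4.46e-05 in the fit of the 8 libraries.

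Several genes held to mark mature macrophages had close levels in both groups. Apoe, the lipoprotein of lipid export, was at 3714, 3454, 3568 and 3422 CPM in macrophages and 2934, 3039, 3097 and 3048 CPM in monocytes. Those ranges did not overlap, yet the log2 difference was only 0.22 ± 0.11 (adjusted p = 0.0954, and 0.000971 in the fit of the 8 libraries). Mertk, a receptor kinase for dying cells, was at 62.8 ± 8.77 and 70.5 ± 7.49 CPM (-0.17), and the lysosomal protease Lgmn at 3386 ± 252 and 3262 ± 196 CPM (0.05). The transcription factor Maf (-0.07), the adaptor Dab2 (-0.02), Sirpa (0.07) and the integrin chain Itgav (0.06) did not pass in either fit.

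Others were higher in the monocytes. Fcgr1, the high-affinity receptor for immunoglobulin G, was at 1803, 1893, 1735 and 1778 CPM in monocytes and 951, 1011, 932 and 747 CPM in macrophages (-0.99 ± 0.13). Csf1r, the receptor for the growth factor on which macrophages depend, fell by 0.55, Gpnmb, a glycoprotein of lipid-laden macrophages, by 1.81, Cd68 by 0.31 and the transcription factor Tfec by 1.05.

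Complement genes, the C1q chains included, were mixed. Of 19 tested members 4 rose and 4 fell, and 8 and 4 in the fit of the 8 libraries. Without any 1 of the libraries except macrophage replicate 2 only 2 rose. C3, the central component, fell from 992 ± 103 to 466 ± 47.6 CPM and factor B (Cfb) from 1659 ± 93.4 to 923 ± 28.1 CPM. Properdin (Cfp) rose by 0.27, the regulator Cr1l by 0.22, and the integrin chain Itgam of complement receptor 3 fell by 0.32. C3ar1, the receptor of the C3a fragment, was at 1162 ± 62.6 CPM in macrophages and 1129 ± 129 CPM in monocytes (0.04).

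Genes of the cell cycle rose nearly throughout. All 25 mitosis and G2/M genes were higher in macrophages, with a median of 2.81, and so were 23 of 25 genes of DNA replication and G1/S (24, and 1 lower, in the fit of the 8 libraries), with a median of 2.02, against 24.8% of all genes called higher. The mitosis list summed to 1269, 1239, 1300.1 and 1378 CPM in the macrophage libraries and to 231, 202, 189 and 198 CPM in the monocyte libraries. Mki67, the proliferation marker Ki-67, was at 264, 298, 244 and 296 CPM in macrophages and 31.2, 21.8, 25.9 and 23.7 CPM in monocytes. The groups were separated by a wide gap, with a log2 difference of 3.42 ± 0.32 (adjusted p = 3.71e-08). Mki67 lies at positions 135689784 to 135716450 of chromosome 7 (GRCm38).

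The rise ran through the stages of the cycle. At entry into S phase, cyclins Ccne1 and Ccne2 rose by 2.6 and 3.07 and the transcription factor E2f1 by 1.08. The helicase subunits Mcm2 to Mcm7 rose by 1.33 (Mcm4) to 2.21 (Mcm7), thymidine kinase Tk1 by 3.4 and the ribonucleotide reductase subunits Rrm1 and Rrm2 by 1.95 and 2.28. Pcna, the sliding clamp, which also serves DNA repair, rose less (0.79), from 153 ± 7.15 to 265 ± 13.2 CPM. The licensing factor Cdt1 (0.21, adjusted p = 0.108; 0.0215 in the fit of the 8 libraries) did not pass over 24 libraries.

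Mitotic genes rose more. Top2a, the topoisomerase that untangles chromosomes, was at 209, 198, 217 and 214 CPM in macrophages and 39.3, 35.2, 30.7 and 35.5 CPM in monocytes (2.57 ± 0.27). Cyclin Ccnb2 was at 36.1, 32.4, 38.7 and 40.7 CPM in macrophages and 4.73, 3.07, 2.63 and 2.47 CPM in monocytes (3.51 ± 0.28, adjusted p = 9.29e-10). Cdk1 rose by 2.68, Plk1 by 2.77, Aurkb by 2.41, the cytokinesis protein Prc1 by 2.64 and Birc5 (survivin) by 2.92, while Aurka (1.42), Tpx2 (1.58) and Bub1b (1.62) had the smallest rises of the list.

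Promoters of the mitosis genes are shown because these genes moved together. Most with a window held a sequence that the choice of the list did not use. The cell cycle homology region, a motif bound by repressor and activator complexes of mitotic genes, was searched as TTTGAA and as TTCGAA, on both strands, in the RefSeq windows from 250 bases before to 50 after each start (GRCm38.p6). A window was found for 21 of the 25 mitosis genes, and 16 of them (76.2%) held TTTGAA, against 1548 of 10446 genes tested (14.8%). The form TTCGAA was in 3 of the 21 (14.3%), against 2.49% of all. Of 21 replication genes with a window, 3 (14.3%) held TTTGAA. A match describes letters in a window, not a bound site. The 4 windows shown were picked only among members that held a match before the start. Each holds 1 match there and is given 5′ to 3′ on the strand of the gene. The match is in capitals and reads TTCAAA where it lies on the other strand. The first match ends 162 bases before the start, the others 25, 24 and 14 bases before it.
Ccnb2, chr9:70421676-70421761, minus strand: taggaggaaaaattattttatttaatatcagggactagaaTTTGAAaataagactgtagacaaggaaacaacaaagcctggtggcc
Prc1, chr7:80294406-80294475, plus strand: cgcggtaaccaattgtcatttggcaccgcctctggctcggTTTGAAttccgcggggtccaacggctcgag
Ube2c, chr2:164769860-164769928, plus strand: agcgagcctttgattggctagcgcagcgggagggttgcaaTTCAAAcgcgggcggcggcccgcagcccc
Kif11, chr19:37376323-37376381, plus strand: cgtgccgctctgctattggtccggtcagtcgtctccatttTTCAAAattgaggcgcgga

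Interferon genes were lower in macrophages nearly throughout. Of 42 tested genes of the type I interferon response 41 fell and none rose, with a median of -0.87, against 27.9% of all genes called lower. The exception was Ifi44 (-0.13, adjusted p = 0.648). The list summed to 30532, 31279, 30631 and 31428 CPM in the monocyte libraries and 15419, 17544, 15616 and 15061 CPM in the macrophage libraries. Levels in macrophages were thus lower rather than absent. Spleen monocytes of mice with MC38 tumors had 6117 to 7829.9 CPM. The tumor monocytes were sorted as Sca1+, and no antigen is named for the macrophages. The part of that sort in the interferon differences was not tested.

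Isg15, a ubiquitin-like protein and a standard readout of interferon, was at 1378, 1392, 1336 and 1477 CPM in monocytes and 469.5, 514, 468 and 392 CPM in macrophages (-1.6 ± 0.28, adjusted p = 7.21e-05). The exonuclease Isg20 fell most in the list, from 252 ± 9.31 to 41 ± 7.28 CPM (-2.62 ± 0.17). The antiviral GTPase Mx2 fell by 1.28, Slfn5, a schlafen protein, by 1.09 and the ADP-ribosyl transferase Parp14 by 0.99. So did the viral RNA sensors Ifih1 (MDA5, -0.84) and Ddx58 (RIG-I, -0.84), the nucleotide kinase Cmpk2 (-1.15) and the transcription factor Stat2 (-1.14).

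Of 24 genes linked to interferon gamma 16 fell and none rose, and 20 fell in the fit of the 8 libraries. Guanylate-binding proteins led: Gbp5 fell from 263 ± 21.3 to 128 ± 10.2 CPM and Gbp9 from 265 ± 10 to 153 ± 16.5 CPM. The transcription factor Irf1 fell by 0.75. Of the T cell attracting chemokines, Cxcl10 was at 1523, 1548, 1392 and 1727 CPM in monocytes and 821, 863, 797 and 782 CPM in macrophages (-0.92 ± 0.44, adjusted p = 0.086, and 1.43e-08 in the fit of the 8 libraries). Cxcl9 was at 394 ± 93.4 and 475 ± 149 CPM and did not pass in either fit. Members of the Gbp family are near-identical to one another, so the division of reads between them is uncertain.

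Promoters of the interferon genes, which also moved together, are shown in the same way. The interferon response element was searched as GAAA, any 2 bases and GAAA, on both strands in the same windows. It was in 16 of 30 type I interferon genes with a window (53.3%) and in 11 of 16 interferon gamma genes (68.8%), against 425 of 10446 genes tested (4.07%), and in 1 of 21 mitosis genes. In the 4 windows shown, again picked only among members that held a match before the start, the match is in capitals. In Stat2 it lies on the other strand.
Slfn5, chr11:82951907-82951996, plus strand: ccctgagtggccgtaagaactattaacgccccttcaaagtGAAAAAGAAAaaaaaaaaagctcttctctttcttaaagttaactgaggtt
Stat2, chr10:128270248-128270325, plus strand: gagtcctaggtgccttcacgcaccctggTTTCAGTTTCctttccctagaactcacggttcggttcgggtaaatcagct
Oas3, chr5:120777685-120777774, minus strand: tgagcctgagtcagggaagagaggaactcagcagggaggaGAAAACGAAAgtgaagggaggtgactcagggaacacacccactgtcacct
Phf11b, chr14:59341331-59341420, minus strand: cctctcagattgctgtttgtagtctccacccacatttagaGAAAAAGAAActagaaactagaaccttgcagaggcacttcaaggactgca

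Genes of antigen presentation were mostly lower in macrophages in both classes. The part of the Sca1+ sort of the monocytes in the differences of class I, class II and costimulatory genes was not tested. Of 20 class I genes 17 fell and 1 rose, with a median of -0.53. The heavy chain H2-D1 fell from 4075 ± 127 to 2916 ± 222 CPM. Nlrc5, the activator of class I genes, fell by 0.86 and the peptide transporter Tap1 by 0.60. The trimming peptidase Erap1 was the member that rose (0.47). H2 genes share sequence with one another, and their single values are uncertain for that reason.

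Of 12 class II genes 9 fell and none rose, with a median of -0.61. H2-Aa, a class II alpha chain, was at 2762, 2332, 3245 and 3349 CPM in monocytes and 1886, 1376, 2016 and 1714 CPM in macrophages (-0.74 ± 0.16, adjusted p = 0.000559). The 2 groups did not overlap, though the highest macrophage library came near the lowest monocyte library. Ciita, the master activator of class II genes, fell from 119 ± 26.5 to 47.3 ± 6.91 CPM (-1.33 ± 0.19) and the invariant chain Cd74 from 6974 ± 899 to 3969 ± 572 CPM. Costimulatory genes were lower too: of 21 tested ligands and checkpoint genes 12 fell and 2 rose, and 16 fell and 3 rose in the fit of the 8 libraries. Cd80 fell by 1.67, Cd86 by 0.84, Cd40 by 0.64 and Cd274 (PD-L1), a ligand that restrains T cells, by 0.92, from 702 ± 69.5 to 371 ± 25.7 CPM. Ebi3 (0.44) and Cd200r1 (0.63) rose.

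Inflammatory cytokines and targets of NF-kappaB were lower too. Of 26 tested, 16 fell and none rose, with a median of -1.29; the fit of the 8 libraries called 21 lower and 3 higher. The interleukin 1 pathway fell at several points: the sensor Nlrp3, which starts the cleavage of the precursor, by 1.56, Il18 by 1.4 and the antagonist Il1rn by 1.26. Osm, oncostatin M, went from 1022, 881, 1022 and 1095 CPM in monocytes to 290.0, 256, 264 and 201 CPM in macrophages, and these ranges were far apart. The feedback inhibitors Nfkbia and Tnfaip3 fell by 0.89 and 1.32. Ptgs2, the inducible cyclooxygenase, was at 1182, 1027, 1315 and 1277 CPM in monocytes and 449, 442, 378 and 453 CPM in macrophages (-1.48 ± 0.65), which did not pass over 24 libraries (adjusted p = 0.0657) and passed over 8 (6.02e-10). Tnf was at 209.8 ± 22.5 and 180.0 ± 19.8 CPM and passed in neither fit.

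Among 12 CC chemokines, Ccl8 rose from 14.2 ± 1.62 to 47.1 ± 10.1 CPM (1.73 ± 0.43) and Ccl5, Ccl6 and Ccl9 fell, Ccl5 by 1.62. Ccl2, the ligand of Ccr2, was at 585 ± 57.5 CPM in monocytes and 419 ± 39.6 CPM in macrophages, which passed only in the fit of the 8 libraries. That fit called 3 CC chemokines higher and 5 lower. Of 12 chemokine receptors 5 fell, among them Ccr1 (-1.56), Cxcr4 (-0.95), Cmklr1 (-1.29) and Ccrl2 (-1.34), and 3 rose, Cx3cr1, Cxcr3 (1.04) and Ccr3. Of 24 immediate early and heat shock genes, induced by stimulation or stress, 15 fell and 1 rose (Hsph1; 2 rose without monocyte replicate 2), against 27.9% of all genes lower, with a median of -0.82. Fos fell from 3795 ± 64.1 to 2061 ± 93 CPM, Btg2 by 1.43 and Fosl2 by 1.54.

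Receptors for microbes and growth signals fell more often than they rose. Of 24 Toll-like and other pattern receptors and their adaptors 14 fell and 2 rose (14 and 4 in the fit of the 8 libraries). Tlr5, for flagellin, fell by 2.22, Tlr9, for unmethylated DNA, by 1.42, Tlr2, for bacterial lipoproteins, by 0.97 and Nod2 from 154 ± 11.8 to 43 ± 2.65 CPM. Clec12a, an inhibitory lectin for uric acid crystals, rose by 1.2. Of 8 receptors and ligands of colony stimulating factors 7 fell, the GM-CSF receptor chains Csf2ra and Csf2rb by 0.86 and 1.36. Of 7 Fc receptor genes 4 fell and Fcgrt, the neonatal receptor that recycles immunoglobulin, rose by 1.27.

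Transcription factors of myeloid cells fell more often than they rose: 19 of 35 fell and 5 rose, with a median of -0.48. Runx3 fell from 578 ± 36.5 to 166 ± 11.1 CPM (-1.8 ± 0.11), and Cebpb, a factor of monocytes and acute inflammation, from 856 ± 75 to 308 ± 12.8 CPM (-1.47 ± 0.44). The granulocyte factor Cebpe fell by 3.09, Klf4 by 1.06, Bhlhe40 by 1.2, Hif1a by 1.03 and Irf5 by 0.68. Spi1 (PU.1), the lineage factor of both cell types, fell by 0.37 and Irf8 by 0.43. The 5 that rose were Pparg (0.92) and Nr1h3 (LXR alpha, 0.57), nuclear receptors of lipid metabolism, their partner Rxra (0.40), Batf3 (0.93) and Bhlhe41 (1.48). The call of Bhlhe41 ended without macrophage replicate 1 or 2 or monocyte replicate 3 or 4 (adjusted p of 0.054 to 0.13). Pparg was at 71.9, 79.5, 74 and 77.4 CPM in macrophages and 38.6, 50.7, 38.6 and 32 CPM in monocytes, with no overlap.

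Lipid genes moved both ways. Of 27 tested 6 rose and 13 fell. Lpl, the lipase that frees fatty acids from lipoproteins, was at 123, 135, 161 and 199 CPM in macrophages and 21.7, 26.2, 26 and 25.8 CPM in monocytes. Macrophage replicate 4, with the most fat cell RNA, had the highest value. The rise was 2.63 ± 0.66 (adjusted p = 0.00234), and 2.49 without that library (adjusted p = 0.00679). Pltp, a phospholipid transfer protein and LXR target, rose by 1.44 and Lipa, the lysosomal acid lipase, by 0.96. The lipid droplet protein Plin2 fell from 962 ± 104 to 516 ± 45.5 CPM, the oxidized lipoprotein receptor Olr1 by 2.11, the scavenger receptor Msr1 by 0.74, Fabp5 by 0.76 and galectin 3 (Lgals3) by 0.76. Spp1, osteopontin, was at 589, 649, 445 and 473 CPM in monocytes and 267, 255, 150.5 and 175 CPM in macrophages (-1.35 ± 0.69, adjusted p = 0.111; 0.00153 in the fit of the 8 libraries). The cholesterol exporters Abca1 (0.18; adjusted p = 0.0433 in the fit of the 8 libraries) and Abcg1 (-0.08) did not pass over 24 libraries. Of 22 cholesterol synthesis and uptake genes 9 fell and 1 rose (7 and 2 with upper quartile scaling, which turned the median from -0.10 to 0.01). The regulator Srebf2 fell by 0.64.

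Lysosomal genes moved both ways: of 40 tested 8 rose and 15 fell (24.8% and 27.9% of all genes), with a median of -0.06 (11 and 13, median 0.05, with upper quartile scaling). The list summed to 33262, 33864, 32824 and 31369 CPM in macrophages and 36924, 37669, 36237 and 36825 CPM in monocytes, so the macrophage libraries lay below the monocyte libraries. The cathepsins D and L were at 1083 ± 92 and 575 ± 75.3 CPM in macrophages and 1095 ± 112 and 543 ± 43.9 CPM in monocytes, and passed in neither fit. Progranulin (Grn) was at 2565 ± 224 and 2553 ± 143 CPM. The hexosaminidase subunit Hexa rose by 0.63, the collagen-digesting cathepsin Ctsk by 1.36 and the proton pump subunit Atp6v0d2 by 2.04. Npc2, which carries cholesterol out of lysosomes, fell by 0.92 and Ctss, a protease of antigen presentation, by 0.43. Of 19 genes for the uptake of dying cells 4 rose and 6 fell, near the shares over all genes. The bridging molecules Gas6 and Pros1 rose by 2.24 and 1.0, Gas6 from 3.32 ± 0.202 to 15.7 ± 3.14 CPM, and the receptors Lrp1 and Cd300lf fell by 1.22 and 1.08.

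**Figure D3:**
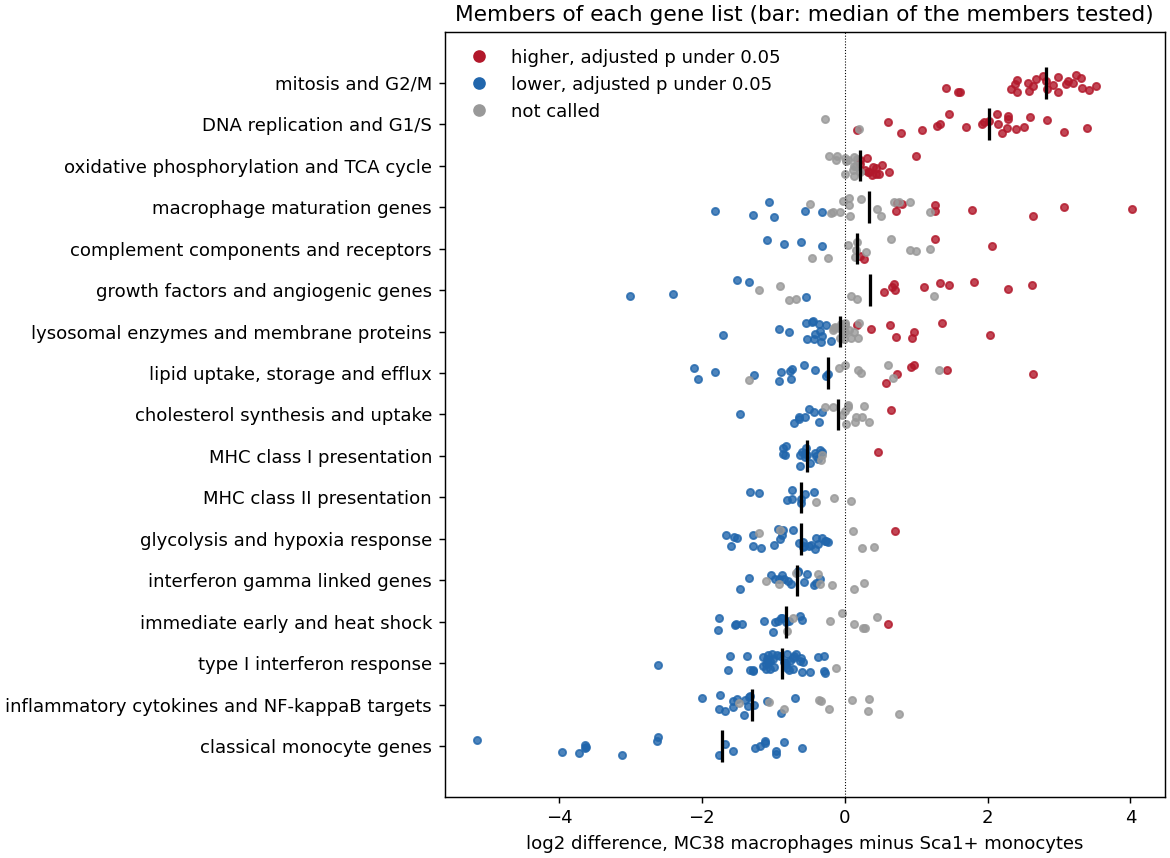
Log2 difference, MC38 macrophages minus Sca1+ monocytes (x axis), of each tested member of 17 gene lists (rows), with a black bar at the median of the list. Red points were called higher, blue points lower and gray points not called at an adjusted p under 0.05; the mitosis list lies wholly on the right with a median of 2.81, and the classical monocyte list wholly on the left with -1.72.

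Metabolic genes divided by pathway. Of 32 genes of glycolysis and the response to hypoxia 26 fell and 1 rose (27 and 2 in the fit of the 8 libraries), with a median of -0.62. The list summed to 17858, 16834, 16129.6 and 17396 CPM in monocytes and 13102, 11703, 11395 and 10494 CPM in macrophages. The glucose transporter Slc2a1 was at 398, 365, 345 and 406 CPM in monocytes and 177, 159.9, 152 and 135 CPM in macrophages (-1.28 ± 0.17), and the lactate exporter Slc16a3 fell by 1.66. Hexokinase Hk2 fell by 0.91, the oxygen sensor Egln3 by 1.59 and Ddit4 by 1.28. Carbonic anhydrase Car9 rose (0.70), to 9.7 ± 1.06 CPM. Vegfa, the angiogenic factor induced by hypoxia, was at 1073, 883, 1027 and 1112 CPM in monocytes and 475, 437, 442 and 433 CPM in macrophages, which passed only in the fit of the 8 libraries (-1.17, adjusted p = 1.57e-09, against 0.101).

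Of 28 nuclear genes of oxidative phosphorylation and the citrate cycle 14 rose and none fell, by small amounts: the median was 0.21. Idh3a rose most, from 25.9 ± 1.54 to 51.9 ± 4.4 CPM, Sdha rose by 0.52 and Atp5b by 0.44. With upper quartile scaling 20 rose and none fell. All 13 mitochondrially encoded RNAs, picked out after their values were seen, rose, with a median of 1.29. Without macrophage replicate 4 all 13 rose and the median was 0.71, so that library carried much of the size. COX1 was at 7782, 7207, 8176 and 18022 CPM in macrophages and 4698, 5079, 4879 and 6927 CPM in monocytes, and the highest monocyte library lay close to the lowest macrophage library. Its log2 difference was 0.93 ± 0.22 (adjusted p = 0.00126), 0.52 without macrophage replicate 4, and it did not pass in the fit of the 8 libraries (adjusted p = 0.055). The ribosomal protein genes, chosen in the same way, counted 51 higher and 2 lower of 77, with a median of 0.37 (60 and 1 without macrophage replicate 4, median 0.44).

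Arginine and polyamine genes moved both ways. The polyamine makers Srm and Sms rose by 0.91 and 1.01, Gatm, the first enzyme of creatine synthesis, from 93.9 ± 10.4 to 361 ± 42.9 CPM and creatine kinase Ckb by 1.19. Arginase Arg2 fell by 2.32 and polyamine oxidase Smox by 1.64. Arg1 was at 251 ± 43.5 CPM in monocytes and 152 ± 13.7 CPM in macrophages (adjusted p = 0.373; 0.000112 in the fit of the 8 libraries). In all, 7 of 20 of these genes rose and 6 fell, against 24.8% and 27.9% of all genes. Of 19 iron and heme genes 7 rose and 3 fell (5 fell in the fit of the 8 libraries, and 1 without replicate 4 of the macrophages or of the monocytes). Ceruloplasmin (Cp) rose from 1.8 ± 0.516 to 17.2 ± 3.84 CPM, the transferrin receptor Tfrc by 0.78 and the iron importer Slc11a2 by 0.58. In the prostaglandin and leukotriene pathway 5 of 20 rose and 4 fell, near the 24.8% and 27.9% of all genes (8 and 7 in the fit of the 8 libraries). The constitutive cyclooxygenase Ptgs1 rose from 1.87 ± 0.183 to 8.29 ± 0.962 CPM and the prostaglandin D synthase Hpgds by 1.21, while the leukotriene receptor Ltb4r1 fell by 2.18 and Pla2g7 by 1.59. Of 20 genes of endoplasmic reticulum stress 5 rose (against 24.8% of all genes) and 8 fell, Herpud1 (0.87) and Edem1 (-0.74) among them.

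Matrix genes fell more often than they rose, and growth factor genes moved both ways. Of 28 matrix genes 12 fell and 3 rose (27.9% and 24.8% of all genes), and 16 fell and 5 rose in the fit of the 8 libraries. Beside Thbs1, Vcan and Tgfbi, the urokinase receptor Plaur fell by 1.48, Emilin2 by 1.47, Ecm1 by 1.51 and the protease Mmp19 by 1.46. Gelatinase Mmp9 rose, from 1.08, 1.82, 1.15 and 1.87 CPM in monocytes to 16.4, 16.2, 5.26 and 14.6 CPM in macrophages (3.15 ± 0.31). Of 22 growth and angiogenic genes 10 rose and 5 fell (10 and 9 in the fit of the 8 libraries), and 6 rose without macrophage replicate 4 or without monocyte replicate 1, 3 or 4. The platelet-derived growth factor Pdgfb rose by 1.1 and the neuropilins Nrp1 and Nrp2 by 0.70 and 0.66. The vascular endothelial growth factor receptor Flt1 fell from 54.5 ± 7.63 to 6.74 ± 0.726 CPM, and Inhba, a subunit of activin, fell by 2.4. Igf1 rose by 2.29, to 3.17 ± 1.4 CPM, a call that ended without macrophage replicate 4 or monocyte replicate 1, 3 or 4 (adjusted p of 0.058 to 0.08). Of 24 genes of alternative activation 10 fell and 3 rose (13 and 6 in the fit of the 8 libraries). Retnla, Cd163 and Igf1 were those that rose, and Chil3, Clec7a (-1.2) and Il4ra (-0.61) were among those that fell. Of 15 integrin chains 9 fell, Itga1 by 3.05 and Itgb7 by 1.59, and Itgb1 (0.54) and Itga9 (0.85) rose (4 rose in the fit of the 8 libraries and with upper quartile scaling).

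Genes of other cell types were low in both groups with some exceptions, given here since their part in the results was not tested. In T and NK cells, 3 of 12 tested genes fell and none rose (0 or 1 fell without macrophage replicate 2 or 3 or monocyte replicate 1 or 4, and 1 rose in the fit of the 8 libraries), and the list summed to 8.52 to 15.5 CPM in macrophages and 13.7 to 16.1 CPM in monocytes, with Cd3e at 0.184 and 0.386 CPM. Of 5 B cell genes Cd79b rose (2 rose without macrophage replicate 3), from 6.96 ± 0.692 to 29.7 ± 1.67 CPM, while the defining gene Cd79a stood at 0.12 CPM in macrophages. Of 16 neutrophil genes 7 fell and none rose; the list summed to 196 to 232 CPM in macrophages and 548 to 672 CPM in monocytes, of which Il1r2 and Csf3r, genes that monocytes share, made up most, and S100a8 was at 1.08 ± 0.245 and 1.64 ± 0.688 CPM. Of 16 dendritic cell genes 2 rose, Xcr1 to 7.6 ± 3.66 CPM and Batf3, and 2 fell (Flt3 and Kmo), with sums of 54.8 to 66.8 and 66.9 to 73.7 CPM.

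Stromal and tumor cell genes were low, except for 2 endothelial genes. Of 15 fibroblast genes 1 fell (Thy1, a call that ended without any of 6 libraries, with adjusted p of 0.053 to 0.11) and none rose (2 in the fit of the 8 libraries), with sums of 39.7 to 47 CPM in macrophages and 37.2 to 45.6 CPM in monocytes. Of 6 endothelial genes tested Kdr and Cdh5 fell, calls that ended without macrophage replicate 4 (adjusted p = 0.052 and 0.053), and 1 of them fell without macrophage replicate 2 or 3. The endothelial list summed to 155 to 189.6 CPM in macrophages and 215 to 298 CPM in monocytes, with no overlap. Kdr, at 62.8 ± 16.1 and 159 ± 32.2 CPM, and Pecam1, at 101 ± 10.6 and 89 ± 3.28 CPM and called higher only in the fit of the 8 libraries, made up most of it, and Vwf was at 1.55 and 1.77 CPM. Of 6 epithelial genes Areg fell (2 fell without macrophage replicate 3 or monocyte replicate 2), and Epcam was at 0.0809 CPM in macrophages. One of 4 genes of eosinophils and mast cells rose (Ccr3, to 0.858 ± 0.18 CPM; 2 rose without macrophage replicate 4), and none of 2 red cell genes passed. None of 9 fat cell genes passed (edgeR quasi-likelihood), and none of the 5 tested in the fit of the 8 libraries. The list summed to 5.02 to 164 CPM in macrophages and 6.75 to 53 CPM in monocytes, the highest value being macrophage replicate 4. In the MC38 spleen libraries, part of the pooled spread, it summed to 23.6 to 15814 CPM. The test over 24 libraries therefore cannot exclude a difference in these genes.

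The difference between macrophages and monocytes was then set against that in LLC tumors, where 7330 genes (55.5%) passed. The monocytes there were sorted as Sca1-, so tumor line and monocyte subset cannot be told apart. In a test of the difference of the differences, 1916 of 13200 genes (14.5%) passed, 825 (6.25%) with a more positive and 1091 (8.27%) with a more negative change in MC38. Lower monocyte genes and higher mitosis genes in macrophages were shared: in LLC tumors 19 of 20 classical monocyte genes fell and 25 of 25 mitosis genes rose. Within that, Ccr2 fell more in MC38 (difference -1.41 ± 0.16, adjusted p = 1.91e-06), and Plac8 fell less (1.22 ± 0.32). Of the mitosis genes 4 rose more in MC38, led by Prc1 (1.73 ± 0.32), and 1 rose less.

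MHC class II went in opposite directions in the 2 tumors. H2-Eb1 was lower in MC38 macrophages than in MC38 monocytes (1537 against 2357 CPM), and higher in LLC macrophages than in LLC monocytes (1575 against 363 CPM). The difference between these changes was -2.74 ± 0.24 (edgeR quasi-likelihood, adjusted p = 7.26e-08). Of the 12 class II genes 10 had a more negative change in MC38 and none a more positive one; 9 fell in MC38, and 8 rose in LLC, where the median was 0.97. Ciita had a difference of -2.39 ± 0.26. The summed class II level was 21942, 19499.6, 24362 and 25049 CPM in MC38 monocytes and 7561, 7206, 7662 and 7111 CPM in LLC monocytes, and 12278 to 15861 and 10771 to 17218 CPM in the macrophages. The macrophages of both tumors thus spanned overlapping ranges, while the monocytes did not. Dendritic cell genes differed between the tumors too. In LLC tumors 7 of 16 tested rose (29.2% of all genes did) and none fell. In MC38, 8 had a more negative change (8.27% of all genes) and 1 a more positive one. Their sums were 37.6 ± 9.18 CPM in LLC macrophages and 19.2 ± 1.75 CPM in LLC monocytes. Their part in the class II result was not tested.

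**Figure D4:**
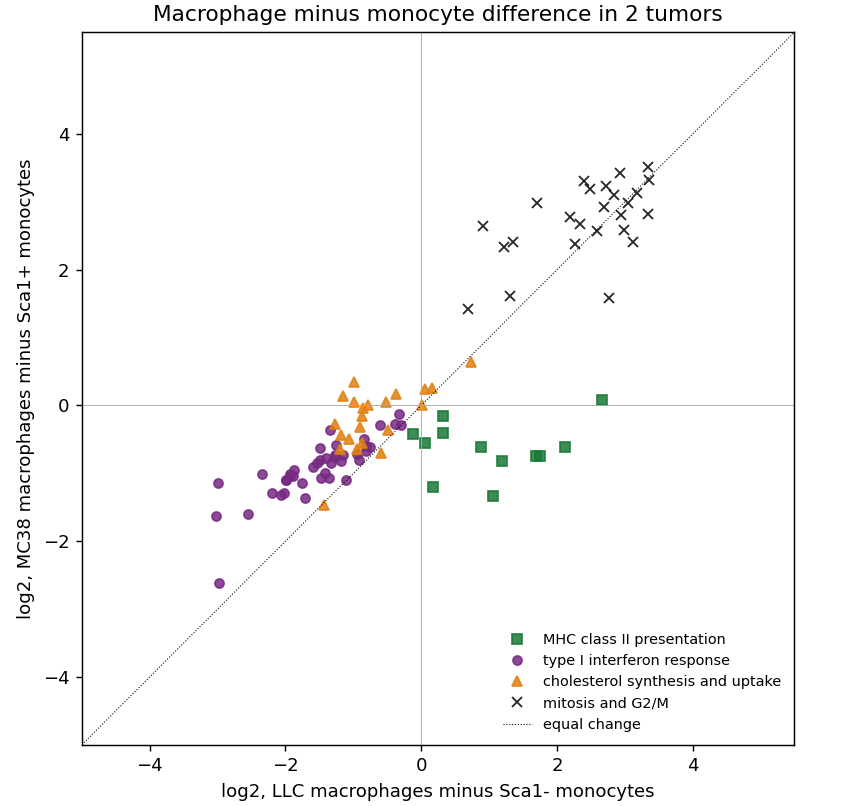
Log2 difference of macrophages minus monocytes in LLC tumors (x axis) and in MC38 tumors (y axis) for the tested members of 4 gene lists, with a dotted line at equal change. MHC class II genes (squares) lie mostly in the lower right, with medians of 0.97 in LLC and -0.61 in MC38, type I interferon genes (circles) lie above the line in the lower left, and mitosis genes (crosses) lie in the upper right.

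Interferon and cholesterol genes had the smaller falls in MC38. All 23 of 42 type I interferon genes that passed the test of the difference had the more negative change in LLC, and in both tumors 41 of 42 fell. Cmpk2 had a difference of 1.84 ± 0.16 (adjusted p = 2.69e-08) and Slfn5 of 0.90 ± 0.11. Of the cholesterol genes 12 of 22 passed, all with the more negative change in LLC, where 18 fell, against 9 in MC38; Idi1 had a difference of 1.04 ± 0.15. In LLC tumors the interferon list summed to 13422 to 14709.8 CPM in monocytes and 4329.7 to 5279.9 CPM in macrophages, below the monocytes and macrophages of MC38 tumors in turn.

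**Figure D5:**
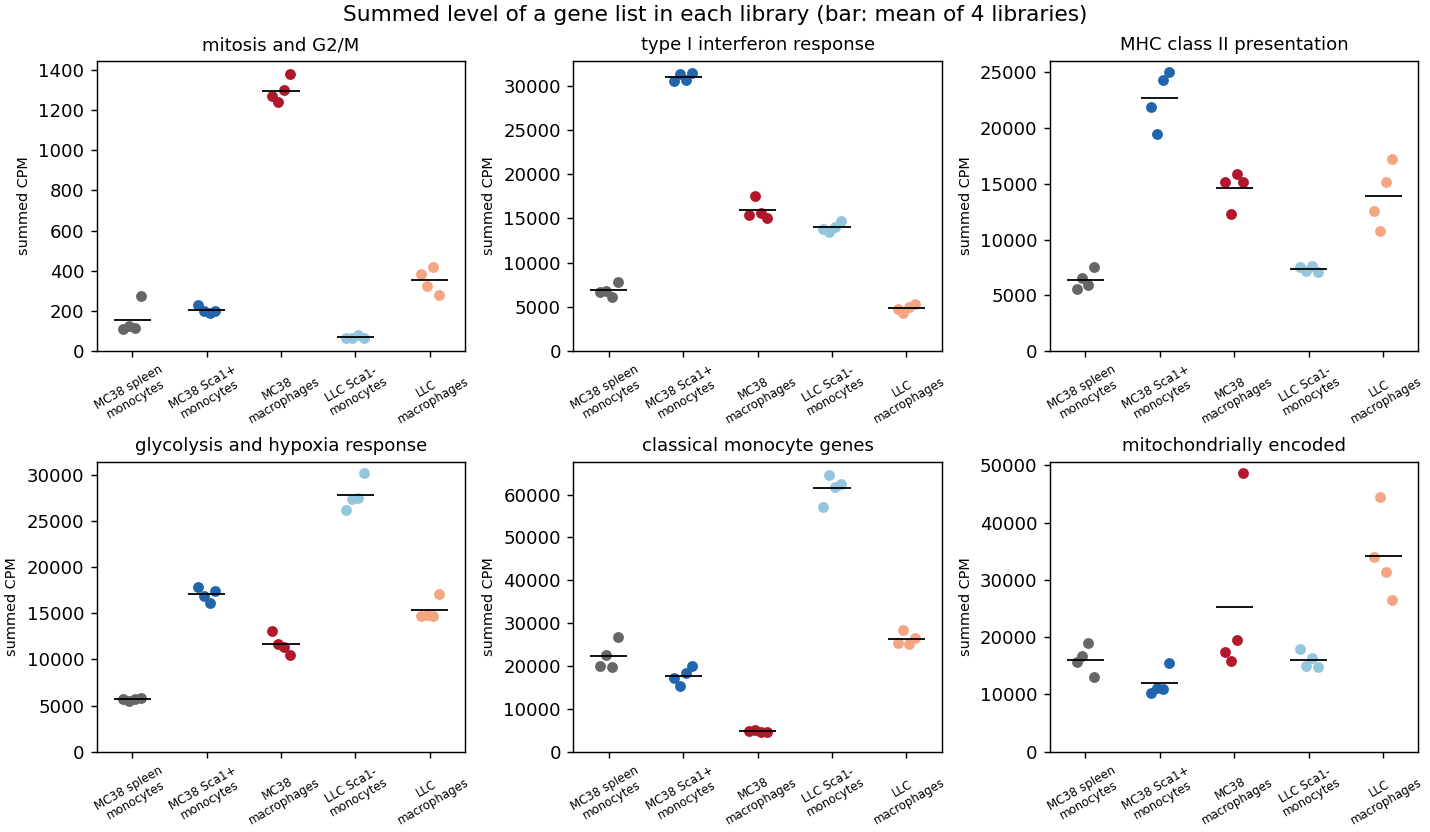
Summed CPM of the members of 6 gene lists in each library (y axes, linear from 0) of MC38 spleen monocytes, MC38 Sca1+ monocytes, MC38 macrophages, LLC Sca1- monocytes and LLC macrophages, with bars at the means of 4 libraries. MC38 macrophages have the highest mitosis sums, 1239 to 1378 CPM, MC38 monocytes have the highest interferon sums, 30532 to 31428 CPM, and macrophage replicate 4 stands above its group in the mitochondrially encoded RNAs.

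The genes with the largest differences between tumors were taken among those with at least 10 CPM in 1 group. With the more positive change in MC38 stood the chemokine Ccl24 (4.28 ± 0.96), Cd177 (3.78 ± 0.56), the glucose transporter Slc2a3 (2.86 ± 0.31), the receptor gene Klra17 (2.7 ± 0.42), the neutrophil-attracting chemokine Cxcl3 (2.59 ± 0.58) and Fgl2 (2.59 ± 0.18). Ccl24 was at 2.97 ± 1.05 CPM in MC38 macrophages and 0.894 ± 0.488 CPM in MC38 monocytes, against 11.4 and 65.2 CPM in LLC. With the more negative change were the receptor Tlr12 (-4.11 ± 0.95), the intermediate filament nestin (Nes, -3.76 ± 0.68), the kinase Cdk18 (-3.39 ± 0.49), the catenin Ctnnd2 (-3.01 ± 0.38), drebrin (Dbn1, -2.8 ± 0.74) and H2-Eb1. Tlr12, which senses profilin of parasites, was at 14.8 ± 2.59 CPM in MC38 macrophages and 7.26 ± 1.7 CPM in MC38 monocytes, against 1.38 and 0.0319 CPM in LLC. Nes, Ctnnd2 and Dbn1 were not called between the MC38 groups, nor were Ccl24, Slc2a3 and Cxcl3. The MC38 calls of Tlr12 and Cdk18 each ended without any of 4 libraries (edgeR quasi-likelihood, adjusted p of 0.052 to 0.094 and 0.11 to 0.17). That of Fgl2 ended without any of 6 (0.05 to 0.15). Macrophage replicate 4 was among these libraries for Cdk18 and Fgl2. The epithelial and tumor cell list summed to 108 to 165 CPM in LLC macrophages and 70.7 to 99.6 CPM in LLC monocytes. In MC38 tumors it summed to 12.8 to 14.9 and 21.9 to 27.7 CPM. The part of tumor cell RNA in these differences was not tested.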

How the data were processed

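Messenger RNA was measured in 34 libraries, made from 100 ng of RNA with a strand-specific kit, per the labels' protocols. The authors deposited 1 table of each gene's expected count, an estimate that need not be whole (14.62% of the values are not). CASAVA 1.8.2 and GRCm38 (mm10) are named in the submitters' processing notes, and for alignment and counting, the tool is not given in the sources used here. Counts were rounded to whole numbers, which moved no total by more than 0.000368%. The design had assumed whole counts. Groups came from the sample titles, because the field for the tumor line runs on from MC38 to higher numbers. Symbols, coordinates and promoters came from RefSeq (GRCm38.p6), which matched 24375 of 24475 Entrez identifiers, and the 100 others held 1.43% of counts.

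All 24 in vivo libraries were fitted in edgeR 4.0.16 (R 4.3.3) with TMM scaling, filterByExpr and the quasi-likelihood F-test, 2-sided, with Benjamini-Hochberg adjustment over 13200 genes at 0.05 (coefficient of variation 0.177). Errors of log2 differences are |log2| over the square root of F. DESeq2 1.42.0, other scalings, filters, groups, the replicate block and each left-out library were tried. The fit was also run on simulated counts, with results that are not reported here. Within a group, any 2 libraries differed beyond counting noise (chi-square per gene 7.71 to 66.6).

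Gene lists and members were chosen with earlier results of these data known, so a list is described by its counts and median, with no set test. Genes were named by rule: the 15 largest rises and 15 largest falls with at least 10 CPM and no overlap, the 10 largest differences in CPM per direction, up to 8 members of a list with the smallest adjusted p, any member of the macrophage, lysosome, complement, lipid, transcription factor and cell cycle lists, the 6 largest differences between tumors per direction, and the sorted antigens. Predicted genes and unmatched identifiers were passed over, and some results are not reported here. Named outside the rule, after their values were seen, were Arg1, Car9, Cd200r1, Cd274, Cd3e, Cd40, Cxcl10, Cxcl9, Ebi3, Epcam, Gas6, Hsph1, Idi1, Ifi44, Igf1, Il1rn, Isg15, Itga9, Oas3, Osm, Phf11b, Ptgs2, S100a8, Tnf, Vegfa and the mitochondrially encoded and ribosomal protein genes.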

Additional observations from a re-analysis of the deposited data

Results flagged for a closer look

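In 40 of 546 groups of 4 libraries of the named genes, 1 library lay far from the other 3. Chance flags about 1 in 20 such groups. Of these libraries, 8 were macrophage replicate 4. The library of macrophage replicate 1 stood apart in 2 genes. Ccr1 was at 239 CPM, against 194 to 202, and Il18 at 15 CPM, against 18.1 to 18.5 in the other 3. The library of macrophage replicate 2 stood apart in 5 genes. Areg was at 4.78 CPM, against 5.85 to 6.06, C1qa at 2717 CPM, against 2992 to 3037, and Cmpk2 at 246 CPM, against 179 to 190.2 in the other 3. Klf4 was at 185 CPM, against 232 to 236, and Vcan at 19.8 CPM, against 12.7 to 13.9 in the other 3. The library of macrophage replicate 3 stood apart in 6 genes. Car9 was at 8.12 CPM, against 10 to 10.4, Fcgrt at 78.1 CPM, against 56.1 to 59.5, and Itgal at 129.9 CPM, against 122 to 123 in the other 3. Itgb7 was at 49.3 CPM, against 58.6 to 59.4, Mmp9 at 5.26 CPM, against 14.6 to 16.4, and Ptgs2 at 378 CPM, against 442 to 453 in the other 3. The library of macrophage replicate 4 stood apart in 8 genes. COX1 was at 18022 CPM, against 7207 to 8176, Clec12a at 555 CPM, against 395 to 414, and Erap1 at 109 CPM, against 96.9 to 97.4 in the other 3. Hpgds was at 103 CPM, against 85.1 to 87.7, Itgb1 at 501 CPM, against 436 to 442, and Knl1 at 17.8 CPM, against 10.5 to 11.6 in the other 3. Ly6a was at 626 CPM, against 880.1 to 895, and Tpx2 at 77.4 CPM, against 67.4 to 67.8 in the other 3. The library of monocyte replicate 1 stood apart in 2 genes. Ccne2 was at 1.28 CPM, against 1.81 to 1.92, and Lpl at 21.7 CPM, against 25.8 to 26.2 in the other 3. The library of monocyte replicate 2 stood apart in 7 genes. Bub1b was at 14.5 CPM, against 18.2 to 18.8, Csf2rb at 536 CPM, against 654 to 665, and Hexa at 294 CPM, against 254 to 260.2 in the other 3. Irf8 was at 316 CPM, against 349.7 to 356, Mmp19 at 92.5 CPM, against 129 to 133, and Runx3 at 524 CPM, against 590.0 to 603 in the other 3. Tlr5 was at 49.6 CPM, against 59 to 60.6 in the other 3. The library of monocyte replicate 3 stood apart in 1 gene. Cxcl3 was at 7.24 CPM, against 11.8 to 12.1 in the other 3. The library of monocyte replicate 4 stood apart in 9 genes. Arg2 was at 38.3 CPM, against 24.2 to 25.7, COX1 at 6927 CPM, against 4698 to 5079, and Cp at 2.57 CPM, against 1.48 to 1.59 in the other 3. Il1rn was at 1906 CPM, against 1553 to 1584, Itgam at 1476 CPM, against 1671 to 1709, and Kif15 at 1.87 CPM, against 2.8 to 2.91 in the other 3. Lrp1 was at 1262 CPM, against 1545 to 1566, Mcm4 at 35 CPM, against 39.2 to 39.7, and S100a8 at 2.67 CPM, against 1.26 to 1.33 in the other 3.

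The difference between macrophages and monocytes was unequal in MC38 and LLC tumors, by the test of the difference, in the 19 genes whose value is printed above. These are not all the named genes that passed it. On the log2 scale it was more positive in MC38 for Ccl24 (4.28), Cd177 (3.78), Slc2a3 (2.86), Klra17 (2.7), Fgl2 (2.59), Cxcl3 (2.59), Cmpk2 (1.84), Prc1 (1.73), Plac8 (1.22), Idi1 (1.04) and Slfn5 (0.90). It was more negative in MC38 for Tlr12 (-4.11), Nes (-3.76), Cdk18 (-3.39), Ctnnd2 (-3.01), Dbn1 (-2.8), H2-Eb1 (-2.74), Ciita (-2.39) and Ccr2 (-1.41).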

How the results depend on the processing

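The count of genes that differed between macrophages and monocytes lay between 6439 and 7512 over the other scalings, filters, tools and sets of libraries (6954 as reported), and between 6180 and 6517 with 1 compared library left out. Genes higher numbered 2823 to 4110 and genes lower 2960 to 3896 over these settings, and 2906 to 3054 and 3184 to 3493 with a library left out. The count for the difference between tumors lay between 1722 and 2649, and between 1331 and 1843 with a library left out, of which 656 to 839 were higher and 657 to 1004 lower, against 1091 lower as reported. The lower count moved by over 1.5 times without any of the 4 LLC monocyte libraries (657 to 705) or without MC38 monocyte replicate 4 (718), and the cause was not tested.

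The replicate block, which pairs samples by their numbers, gave 6900 genes, 3234 higher and 3666 lower, and 806 higher and 1083 lower for the difference between tumors. Deviations of macrophage and monocyte libraries of the same number correlated at 0.046, 0.142, 0.036 and 0.172 over 8570 genes, and not every library correlated best with its own number, so the numbers were not taken to pair samples. Of 273 named genes the block ended 3 calls and gained 2, and 6 growth and angiogenic genes rose in it, against 10. Upper quartile scaling ended 2 and gained 3, and the fit of the 8 libraries ended 1 and gained 19, of 272 it tested. The fit without the spleen libraries high in fat cell RNA ended no call of a named gene and gained 5. No named gene changed direction past the threshold in any setting run. Genes under about 1 CPM rest on few counts, and 4 libraries a group cannot show small differences in them.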

Other observations

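Lysosomal promoters were searched for the element GTCACGTG, on both strands, in the same RefSeq windows. It was in 8 of 30 lysosomal genes with a window (26.7%), against 488 of 10446 genes tested (4.67%), in 2 of 21 replication genes (9.52%) and in none of the mitosis and interferon genes with a window. The sequence TGCTGA was in 18.3% of all genes with a window, in 5 of 21 macrophage maturation, 3 of 15 classical monocyte, 9 of 30 lysosomal, 5 of 16 interferon gamma, 4 of 30 type I interferon, 4 of 21 mitosis and 2 of 21 replication genes.

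In 650 genes the 4 macrophage and 4 monocyte libraries did not overlap and yet the test over 24 libraries did not call them. Among all 13200 genes, 3312 (25.1%) were higher in every macrophage library than in any monocyte library and 3611 (27.4%) lower.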
